A study of Saccharomyces cerevisiae with 4 samples.

Results

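The first 20 min that sporulating yeast cells spent in rich medium were described by setting the array taken at 20 min in YPD against the array taken at 0 min in YPD. Every gene on the array was a member of this comparison, and 6206 of the 6218 open reading frames (ORFs) had both of their duplicate spots usable on both arrays. The cells were GF18, an SK1 diploid strain whose HA-tagged NDT80 was driven by the promoter of the middle sporulation gene SPS4. Ndt80 is the transcription factor that activates the middle sporulation genes, and here its gene was placed under a promoter that it activates itself. After 5.5 h in sporulation medium (SPM), which contains acetate, some of the cells were moved to YPD, a rich medium with glucose, and harvested at once (0 min) and after 20 and 40 min. The series has 1 array for each of these 4 samples, all hybridised as Cy5 against the same Cy3 reference RNA from wild-type SK1 diploids (NKY1551) growing in YPA, an acetate medium. Both arrays compared here were therefore in YPD, and no SPM sample beyond 5.5 h was part of the series, so that time in YPD cannot be told apart from further time in the sporulation programme.

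Sporulation is the response of diploid budding yeast to the lack of a fermentable carbon source and of nitrogen: the cells replicate their DNA, recombine, pass through both meiotic divisions and wrap the haploid nuclei in prospore membranes and a layered spore wall. Glucose and nitrogen restart growth through the Ras/protein kinase A and TOR pathways, which are known for switching on the genes of ribosomes and of ribosome assembly and for switching off genes of respiration, acetate use and stress. The study built this strain to keep NDT80 expressed in YPD. It asked whether lower NDT80 expression lies behind the fall of middle sporulation genes in that medium.

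Levels below are log2 ratios of the sample (Cy5) over the reference (Cy3) after background correction and normalization within the array. The dye fields of the sample labels give this direction, whereas their labelling protocol names the dyes the other way round. The study's own description of its arrays also gives Cy5 to the samples and Cy3 to the reference, which is the direction used. The middle sporulation genes then lie above the vegetative reference, and with the other order every sign below would turn. A change is the 20 min level minus the 0 min level on the log2 scale, and the value after ± is the SD of the change over the 2 duplicate spots. The spots lie side by side on 1 array, so this SD covers spot noise and leaves out the difference between cultures, hybridisations and labelling reactions. With 1 array on each side no test between the time points was possible. A gene was counted as higher or lower when its mean and both of its spots changed at least 2-fold in the same direction. By that rule 385 genes (6.20%) were higher at 20 min and 466 (7.51%) were lower, or 13.7% in all. The median change over all genes was -0.12, and the changes of the duplicate spots had an SD of 0.364 and correlated at r = 0.81 across genes, which are not independent replicates.

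The 2 hybridisations were alike in strength. At 0 min 54.7% of the genes were above background in the sample channel, against 55.8% at 20 min, and in the reference channel 69.6% and 72.2% were. The labelled state of the cells was visible in its defining genes. All 14 middle sporulation markers were above background at 0 min, with levels from 3.92 to 7.71 and a median of 6.81, and 13 of them were so at 20 min, with a median of 6.52. Of 3 late spore markers DIT1 and DIT2 were above background at both times and SPS100, at -0.13 and then -0.09, at neither. Of 14 haploid and mating-type markers 6 were above background at 0 min, namely MF(ALPHA)1, STE3, SAG1, STE4, STE18 and HO, with levels of up to 3.51 for STE18, and 4 were so at 20 min. The a-specific genes MFA1, MFA2, STE2, STE6, BAR1 and AGA2 were not above background at 0 or 20 min.

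The largest group of rises was in the ribosome. Of the 132 tested genes of cytosolic ribosomal proteins 98 rose, 3 fell and 31 did not pass the threshold, where 6.20% of all genes rose. Their median change was 1.55, with a middle range over genes of 1.06 to 1.95. At 0 min 44 of the 132 genes lay above the reference, and at 20 min 124 did. RNA was taken from whole cultures, so that fewer cells of one kind and less RNA per cell cannot be told apart. In the plot of levels at 0 and 20 min most of these genes lie above the upper 2-fold line, near the reference level on the horizontal axis and above it on the vertical axis.

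**Figure D1:**
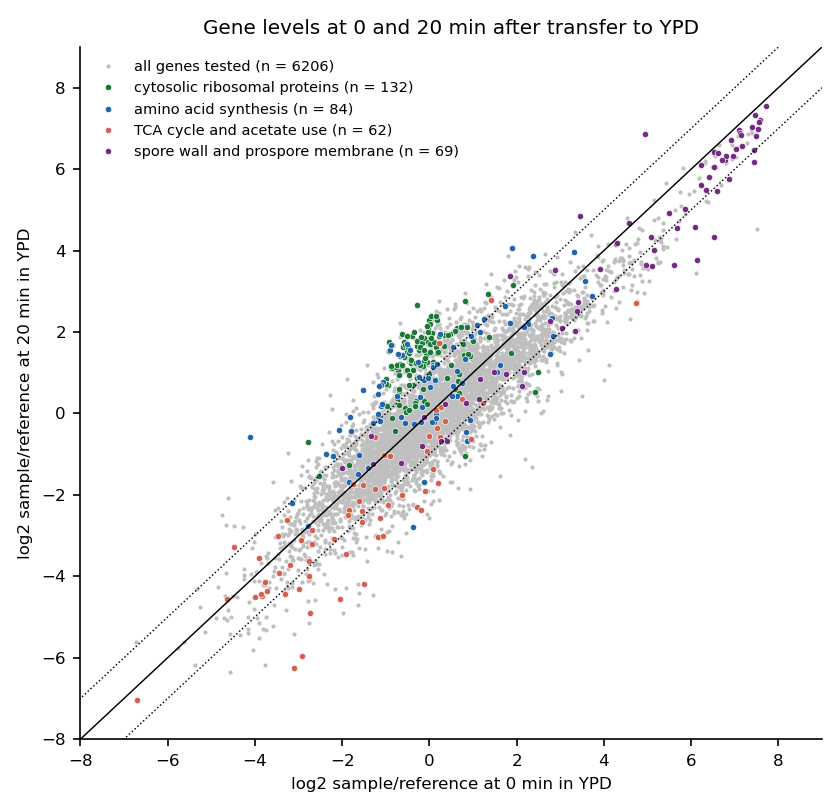
Log2 ratio of sample over reference at 0 min in YPD (horizontal) and at 20 min (vertical) for 6206 genes, as the mean of 2 spots, with 4 gene groups coloured. The solid line marks no change and the dotted lines mark 2-fold. Of the 132 ribosomal protein genes (green) 98 were called higher, whereas the genes of the spore wall and the prospore membrane (purple) stayed among the highest ratios on both arrays, mostly just below the line of no change.

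Among the genes of the small subunit 44 of 55 rose and 1 fell, with a median change of 1.65. RPS22A, which encodes a protein of the small subunit, had the largest rise of all ribosomal protein genes: it stood at -0.24 and -0.34 on its 2 spots at 0 min and at 2.82 and 2.48 at 20 min, a change of 2.94 ± 0.17. All 4 readings of the pair of arrays were well separated, and the level was 3.13 at 40 min. At 5.5 h in SPM RPS22A read -2.22 but was not above background in the sample channel. RPS29B rose by 2.67 ± 0.26, from -0.92 to 1.75, and RPS8B by 2.45 ± 0.06, from -0.92 to 1.52. ASC1, whose product sits on the head of the small subunit as a signalling scaffold, rose by 2.73 ± 0.11, from -2.28 to 0.46. In SPM it read -3.56 and was not above background in the sample channel.

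Among the genes of the large subunit 54 of 77 rose and 2 fell, with a median change of 1.53. RPL34A rose from -0.62 to 1.95 (2.57 ± 0.23), RPL31A from -0.87 to 1.69 (2.55 ± 0.03) and RPL17B from -0.92 to 1.53 (2.45 ± 0.03). These 3 genes crossed the level of the growing reference between 0 and 20 min. At 5.5 h in SPM they read between -3.12 and -2.52, but were not above background in the sample channel. RPL35B had a change in its ratio of 2.30 ± 0.01, but only 0.57 in the sample channel alone. The ribosomal protein genes of mitochondria differed from those of the cytosol, with 0 of 71 higher, 0 lower and a median change of -0.04. Of the 71, however, 33 were above background in the sample channel on neither array and 32 on both. For the large and small subunits of the cytosol 73 of 77 and 52 of 55 were so on both.

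Most proteins of the yeast ribosome are encoded by 2 near-identical genes, whose PCR-product probes can capture each other's cDNA, so that the values of a pair are not separate measurements. Both copies were tested for 55 pairs. Both rose in 36 pairs, 1 rose in 13 and neither in 6, and the median absolute difference between copies was 0.42. The copies differed by more than 1 on the log2 scale in 7 pairs. RPL11B rose by 1.93 ± 0.13 whereas RPL11A, at 1.88 and then 1.48, had a change of -0.39 ± 0.11. RPS8B rose by 2.45 ± 0.06 beside a change of 0.69 ± 0.09 for RPS8A. For RPS19A, RPL31B and RPL43B the sample channel was above background on neither array.

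**Figure D2:**
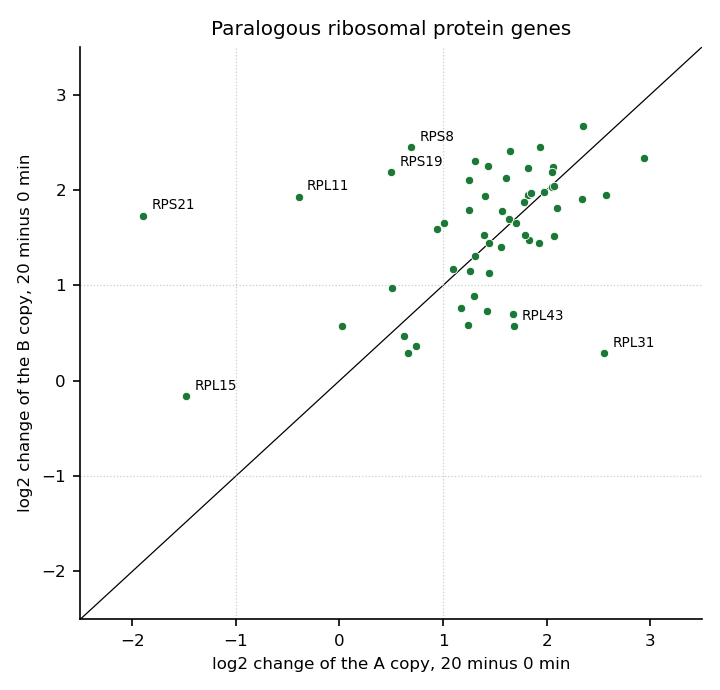
Change between 0 and 20 min of the A copy (horizontal) and of the B copy (vertical) for 55 pairs of cytosolic ribosomal protein genes, in log2 units, as the mean of 2 spots. The line marks equal change, the dotted lines mark 2-fold, and the 7 pairs whose copies differ by more than 1 are named. Both copies rose in 36 pairs, and RPS21 was the 1 pair with opposite calls.

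Of the 3 ribosomal protein genes that passed downwards, RPS21A, whose partner RPS21B rose by 1.73 ± 0.20, changed by -1.90 ± 1.12, so that its spots disagreed, and it was not above background in the sample channel at 20 min. RPL15A was not above background at 20 min, and its fall can be given only as at least 1.77-fold. RPL5, the partner of 5S rRNA in the large subunit, changed by -1.87 ± 0.23 in the ratio, by -0.65 in the sample channel alone and by -0.05 when each print block was normalized on its own.

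The machinery that builds ribosomes moved in the same direction with a smaller size. Of 70 genes of the small-subunit processome and of later small-subunit assembly 14 rose (20%) and 0 fell (median change 0.62). Of 78 genes of large-subunit assembly 24 rose (30.8%) and 2 fell (2.56%), with a median of 0.65. Of all genes 6.20% rose and 7.51% fell. KRR1, a processome component, was at 0.23 at 0 min, where it was not above background in the sample channel, and at 2.76 at 20 min, a rise of at least 4.74-fold. EMG1, the methyltransferase of the small-subunit rRNA, rose at least 3.54-fold. For large-subunit assembly NUG1, a GTPase needed for nuclear export of the precursor, rose from -0.35 to 1.86 (2.21 ± 0.15), the assembly factor genes NOP15 from 0.56 to 2.57 (2.01 ± 0.04) and RRS1 from 1.81 to 3.87 (2.07 ± 0.29). For RRS1 the reference was above background on neither array. At 0 min 42 of the 70 small-subunit assembly genes were above background and at 20 min 60 were, and for the large-subunit assembly genes these numbers were 57 and 70 of 78.

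Of the 2 large-subunit assembly genes that went the other way, RPF2 gave no sample signal above background at either time, and its change was -1.58 ± 0.29 in the ratio but 1.01 in the sample channel alone. DBP2, an RNA helicase, fell by 1.48 ± 0.18. It had gone from -0.08 in SPM to 4.63 at 0 min and then stood at 3.15 at 20 min and 2.53 at 40 min.

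RNA polymerases I and III transcribe the rRNA and the tRNAs. Of 27 genes of their subunits 5 rose and 0 fell (median change 0.27). RPA49 of polymerase I rose from 1.42 to 3.42 (2.00 ± 0.30), with the reference above background on neither array. RPC53 and RET1 of polymerase III rose by 1.64 ± 0.36 and by at least 1.47-fold. Of 16 regulators of ribosome synthesis 1 rose and 1 fell, or 6.25% each, near the shares of all genes (6.20% and 7.51%). TOD6, a repressor that binds promoters of ribosome assembly genes, rose from 0.24 to 2.11 (1.86 ± 0.26), and IFH1, a coactivator of ribosomal protein genes, fell from 3.23 to 1.81 (-1.42 ± 0.54). IFH1 had read -1.18 in SPM, where it was not above background, so its level at 20 min was still far above the SPM reading.

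Genes that supply translation followed. Of 21 cytosolic aminoacyl-tRNA synthetases, which charge tRNAs with amino acids, 6 rose (28.6%, against 6.20% of all genes) and 0 fell (median change 0.86). GRS1, the glycyl-tRNA synthetase, went from -2.24 to 0.11 (2.35 ± 0.01). HTS1 had a mean change of 2.91 that rested on 1 spot, since its spots changed by 1.42 and 4.41 and the sample channel by 1.13. Of 49 translation factors and ribosome-bound chaperones 11 rose (22%) and 3 fell (6.12%, against 7.51% of all genes), with a median of 0.23. The ribosome-associated chaperones SSZ1 and ZUO1 rose by 1.88 ± 0.05 and 1.58 ± 0.21. The 3 that fell were the elongation factor genes TEF1 (-1.53 ± 0.10), its near-identical copy TEF2 (-1.51 ± 0.04) and YEF3 (-1.15 ± 0.02). These are among the brightest spots of the array, and with array-median scaling their changes were -0.42, -0.32 and -0.27. YEF3 had gone from -2.08 in SPM to 1.61 at 0 min.

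Genes of amino acid synthesis formed the second large group that rose. Of 84 tested members 29 rose (34.5%, against 6.20% of all genes) and 5 fell (5.95%, against 7.51%). Their median change was 0.87, and the number above background in the sample channel went from 52 to 67. With sides not above background set to their bound, and the 15 members above background on neither array set to 0, the median was 0.35. ARG1, which encodes argininosuccinate synthetase, read -3.98 and -4.25 on its spots at 0 min and -0.44 and -0.71 at 20 min. It was not above background at 0 min, so the rise can be given only as at least 4.58-fold and has no rank among the genes measured at both times. ARG1 had been higher in SPM (-2.12) than at 0 min, and at 40 min it was at -1.36.

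Steps of the aspartate branch were among the rises. THR1, homoserine kinase, rose at least 4.07-fold and HOM2, aspartate semialdehyde dehydrogenase, at least 3.37-fold. ASN1, asparagine synthetase, went from -0.73 to 1.46 (2.19 ± 0.01), and ARO4, the entry to the aromatic branch, from -0.68 to 1.40 (2.08 ± 0.17). The branched-chain gene ILV3 rose from -1.53 to 0.59 (2.11 ± 0.07).

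The 5 members that passed downwards were PRO3, BAT2, GLN1, TYR1, the prephenate dehydrogenase gene (-1.53 ± 0.10), and MET3, which was above background at neither time. PRO3, the last step of proline synthesis, fell at least 3.40-fold. GLN1, glutamine synthetase, fell by 1.30 ± 0.02, with -0.53 in the sample channel alone. BAT2, a cytosolic transaminase, fell by 1.57 ± 0.27, a value that was -0.94 with array-median scaling and -0.10 with scaling within print blocks. Of 34 genes of purine and pyrimidine synthesis 6 rose (18%, against 6.20% of all genes) and 0 fell (median change 0.75, and 0.21 at the bounds). The rises included URA1, dihydroorotate dehydrogenase, by at least 1.99-fold, and the ribose-phosphate pyrophosphokinase genes PRS1 (1.73 ± 0.38) and PRS5 (1.64 ± 0.18).

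**Figure D3:**
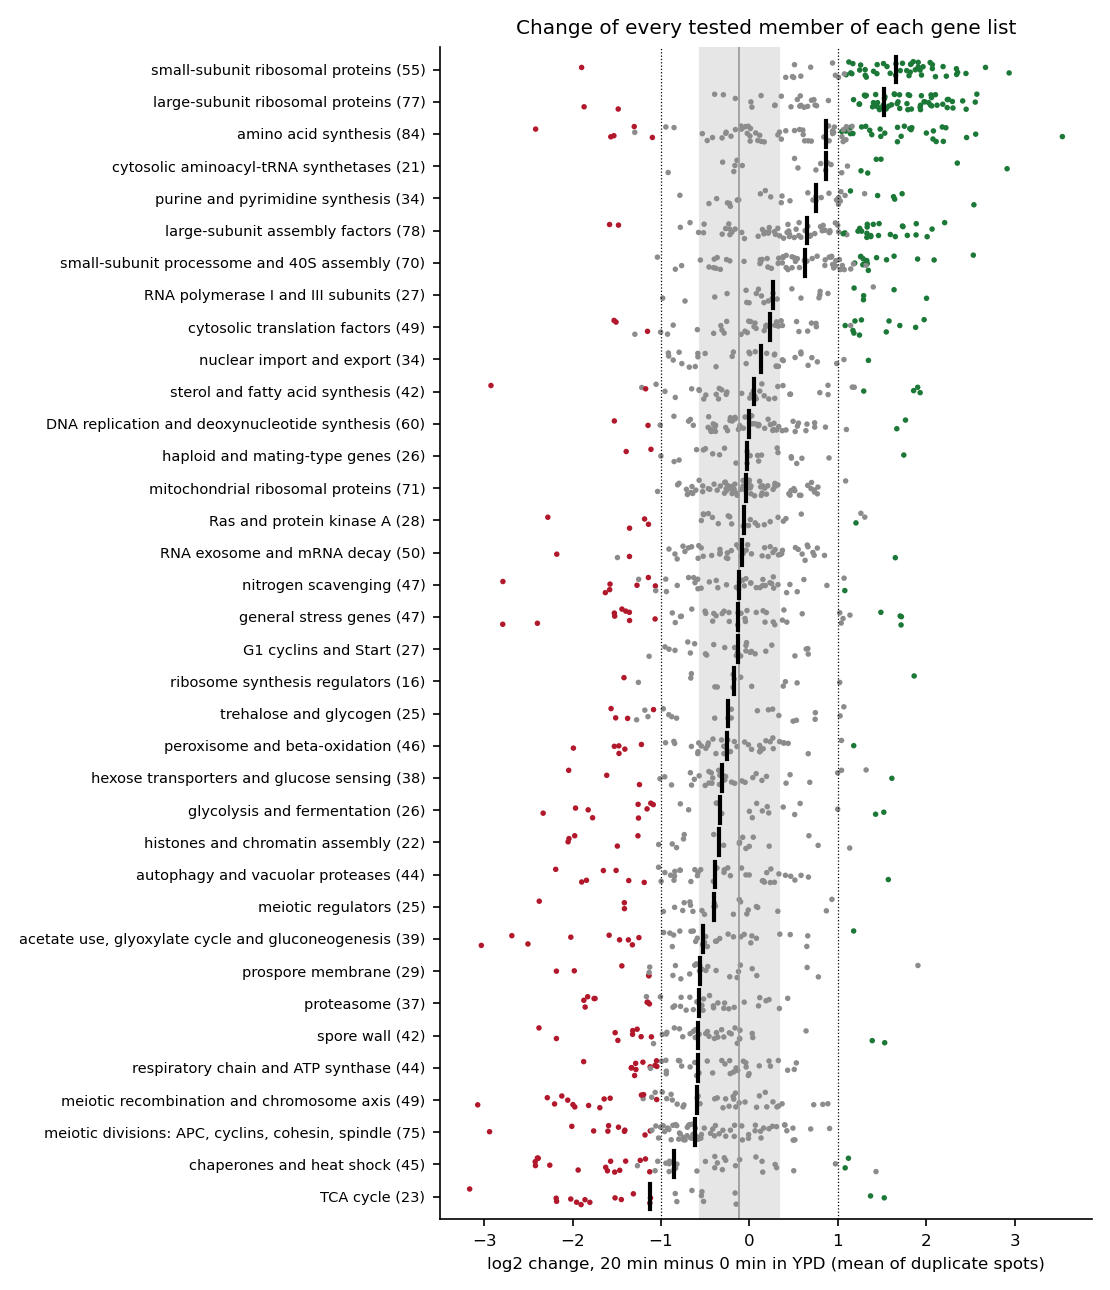
Change between 0 and 20 min in YPD of each tested member of 36 gene lists, in log2 units, with the number of members in brackets. Green points passed the rule for higher genes, red points the rule for lower genes and grey points neither, black bars are list medians, the grey band is the middle range of all genes and dotted lines mark 2-fold. The 2 lists of cytosolic ribosomal proteins stand at the top with medians of 1.65 and 1.53, and chaperones (-0.85) and the TCA cycle (-1.12) stand at the bottom.

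Among the gene lists, falls were most frequent in the TCA cycle, which burns acetyl-CoA to carbon dioxide and is needed to live on acetate. Of 23 tested members 13 fell and 2 rose, where 7.51% of all genes fell, and the median change was -1.12. FUM1, fumarase, stood at -3.10 on both spots at 0 min and at -6.62 and -5.91 at 20 min. It was not above background in the sample channel at 20 min, and the fall was at least 3.82-fold. KGD1 and KGD2 of 2-oxoglutarate dehydrogenase fell by 2.19 ± 0.29 and 1.90 ± 0.17, and LSC2 of succinyl-CoA ligase by 2.02 ± 0.03. SDH3 and SDH4, the membrane anchors of succinate dehydrogenase, fell by at least 3.47-fold and by 1.86 ± 0.14. The pyruvate dehydrogenase genes PDA1 and PDB1 fell by 1.95 ± 0.07 and 1.52 ± 0.04.

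Among the members that rose was MAE1, the mitochondrial malic enzyme, which went from 0.21 to 1.73 (1.52 ± 0.07). Of 44 genes of the respiratory chain and the ATP synthase 11 fell (25%, against 7.51% of all genes) and 0 rose. Their median change was -0.58, and -0.39 with array-median scaling. NDE1, the external NADH dehydrogenase, fell by 1.87 ± 0.02, a change that was -1.19 with array-median scaling and -3.48 with scaling within print blocks. COR1 and RIP1 of the cytochrome bc1 complex fell by 1.29 ± 0.15 and 1.28 ± 0.05. GUT2, the mitochondrial glycerol-3-phosphate dehydrogenase gene, which fell by 1.33 ± 0.19, changed by -0.33 with array-median scaling.

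Of 39 genes of acetate use, the glyoxylate cycle and gluconeogenesis 9 fell (23.1%) and 1 passed the threshold upwards (2.56%), with a median change of -0.52. Of all genes 7.51% fell and 6.20% rose. ACS1, the acetyl-CoA synthetase used on acetate, went from -2.93 to -5.96, which its signal at 20 min allows to be stated as a fall of at least 4.59-fold. ACH1, which transfers CoA to acetate, fell by 2.69 ± 0.11, from -1.50 to -4.19, and ALD4, mitochondrial aldehyde dehydrogenase, by 2.50 ± 0.24. ADY2, an acetate transporter, fell by 1.59 ± 0.07, and ICL1, isocitrate lyase, by 1.47 ± 0.05. For ICL1 the sample channel alone changed by -0.54. The second synthetase gene ACS2 had a change of 1.18 ± 0.20 but was above background on neither array. FBP1 and PCK1, the key genes of gluconeogenesis, had changes of -0.34 ± 0.21 and -0.10 ± 0.06, and FBP1 was already at -6.70 at 0 min without being above background.

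Glycolysis and fermentation did not move as a block. Of 26 genes 9 fell (34.6%, against 7.51% of all genes) and 2 rose (7.69%, against 6.20%). Their median change of -0.34 lay between -0.53 and 0.00 under the other ways of processing. TDH1, TDH2 and TDH3, the closely similar genes of glyceraldehyde-3-phosphate dehydrogenase, fell by 2.33 ± 0.08, 1.82 ± 0.33 and 1.97 ± 0.29. At 40 min these 3 genes were 2.93 to 3.25 above their 20 min levels, a comparison that shares the 20 min array. The pyruvate decarboxylase gene PDC5 rose from -3.17 to -1.66 (1.52 ± 0.04). PDC1 rose from -2.59 to -1.17 (1.43 ± 0.01), and for this bright gene the value was 2.55 with array-median scaling and -0.70 with scaling within print blocks. HXK2, the hexokinase of glucose-grown cells, had a change of 1.00 ± 0.14 with 1 spot short of the threshold.

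Of 38 hexose transporters and glucose sensing genes 1 rose (2.6%) and 3 fell (7.9%), against 6.20% and 7.51% of all genes (median change -0.31). HXT2, a high-affinity transporter, had gone from -0.84 in SPM to 1.27 at 0 min and fell by 2.04 ± 0.14 to -0.78. HXT1, the low-affinity transporter of high glucose, went from -0.43 to 0.62 between the first YPD arrays, after -1.37 in SPM and before 1.06 at 40 min. Its change of 1.04 ± 0.31 did not pass on both spots. STD1, a glucose-sensing regulator, rose at least 1.24-fold.

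**Figure D4:**
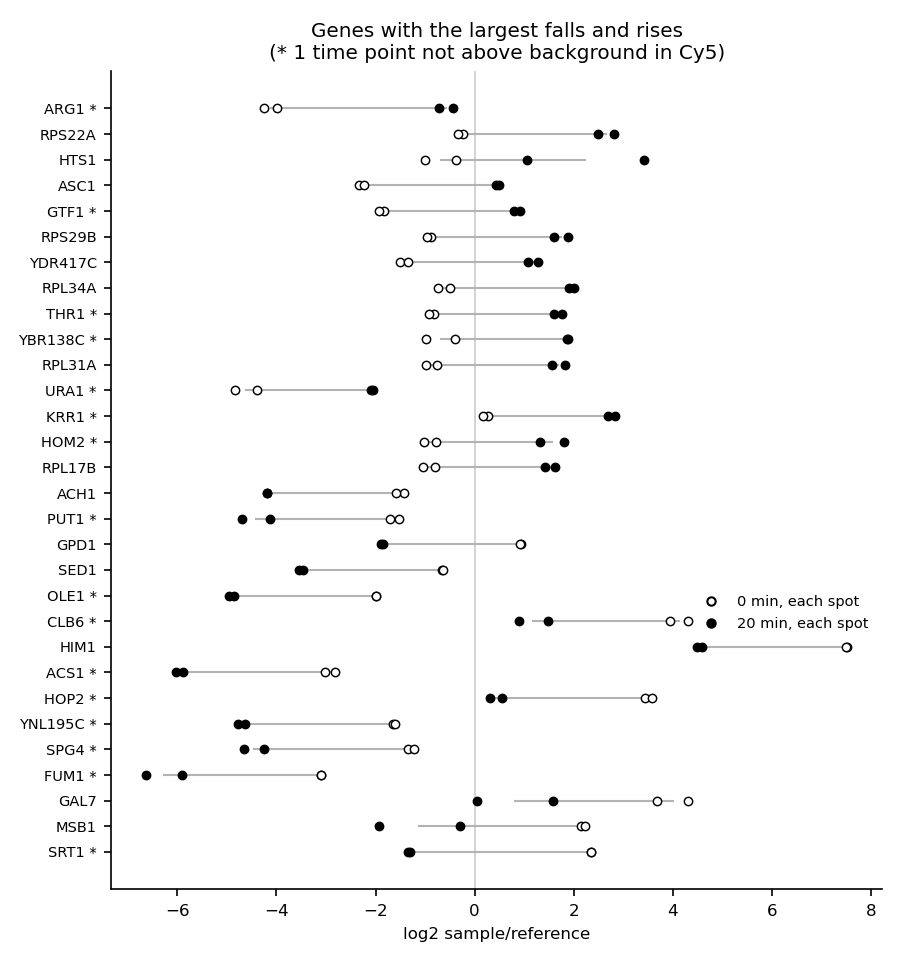
The 15 genes with the largest upward (upper part) and the 15 with the largest downward (lower part) ratio changes among genes past 2-fold on both spots, with the log2 ratio of sample over reference on each spot at 0 min (open) and at 20 min (filled). An asterisk marks genes that were not above background in the sample channel at 1 of the 2 time points. Genes are ordered by their ratio change, and those with an asterisk, ARG1 and SRT1 among them, have no measured rank because 1 side is a bound. The spots of HTS1, MSB1 and GAL7 lie far apart at 20 min.

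Of 42 genes of sterol and fatty acid synthesis 4 rose and 2 fell, where 6.20% and 7.51% of all genes did. The rises were the ergosterol genes ERG3 (at least 3.35-fold), ERG11 (1.86 ± 0.25), ERG5 (at least 1.67-fold) and ERG1 (1.29 ± 0.27). OLE1, the fatty acid desaturase, went from -1.98 on both spots to -4.96 and -4.85, a fall of at least 5.70-fold, and was back at -2.19 at 40 min. ERG13, an early step of the same sterol pathway, fell by 1.17 ± 0.23.

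Chaperone genes fell widely. Of 45 members 15 fell (33.3%, against 7.51% of all genes) and 2 rose (4.44%, against 6.20%). The median change of -0.85 was -0.52 with array-median scaling. HSP82 and HSC82, the inducible and the constitutive Hsp90 genes, fell by 2.42 ± 0.05 and 1.94 ± 0.16, and probes of this pair can capture each other's cDNA. The small heat shock genes HSP26 and HSP42 fell by 2.40 ± 0.07 and by at least 3.39-fold, and KAR2, the Hsp70 of the endoplasmic reticulum, by 2.26 ± 0.02. The 2 that rose, CCT4 (1.12 ± 0.05) and CCT2 (1.08 ± 0.03), both belong to the chaperonin that folds actin and tubulin. Of 37 proteasome genes 8 fell (21.6%) and 0 rose (median -0.57). The falls included RPN5 (-1.86 ± 0.10) and RPN8 (-1.83 ± 0.19) of the regulatory particle and PRE3 (-1.87 ± 0.47) of the core.

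General stress genes went both ways, with 9 of 47 lower (19%, against 7.51% of all genes) and 4 higher (8.51%, against 6.20%). Their median change was -0.13, next to -0.12 for all genes. GPD1, the first enzyme of glycerol synthesis, went from -0.96 in SPM to 0.92 at 0 min and fell to -1.86 at 20 min, a change of -2.79 ± 0.06. The glycerol phosphatase gene GPP2 had a similar course, from 1.81 in SPM to 5.24 and then 3.71. The 4 higher genes were AHP1 (1.72 ± 0.17), a peroxiredoxin, RTN2 (1.49 ± 0.10, with 0.63 in the sample channel alone), GAD1, glutamate decarboxylase (at least 1.49-fold), and XBP1, a transcriptional repressor that was above background at 20 min only. Of 25 trehalose and glycogen genes 4 fell (16%) and 0 rose. The falls included NTH1, neutral trehalase (-1.56 ± 0.00), and GAC1, which targets a phosphatase to glycogen synthase (-1.51 ± 0.04). Of 44 autophagy and vacuolar protease genes 7 fell (15.9%) and 1 rose (2.27%). PRB1, vacuolar protease B, fell by 2.19 ± 0.14, and ATG11, a scaffold of selective autophagy, rose by 1.57 ± 0.07.

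Nitrogen scavenging genes (47) showed 7 falls (14.9%) and 1 rise (2.13%), where 7.51% of all genes fell and 6.20% rose. PUT1, proline oxidase, fell at least 1.74-fold. ALP1, an amino acid permease, was lower and above background at 0 min only, and CAR2 of arginine breakdown fell by 1.58 ± 0.14. UGA2, succinate semialdehyde dehydrogenase, rose by 1.08 ± 0.07. Of 46 genes of peroxisomes and beta-oxidation 6 fell (13.0%), and PEX4 passed upwards (1.18 ± 0.05) with neither array above background. FAA1, an acyl-CoA synthetase, fell by 1.99 ± 0.22, and POX1, the first oxidase of the pathway, by 1.53 ± 0.21.

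The meiotic programme was lower at 20 min in part of its genes. IME1, the master regulator of entry into meiosis, read -2.78 and -2.75 on its spots at 0 min and -5.17 and -5.12 at 20 min, a fall of 2.38 ± 0.02. This followed a level of -0.41 in SPM, so that it was lower on each of the 2 YPD arrays than on the one before, and it was at -4.54 at 40 min. The size of the fall between 0 and 20 min was smaller with scaling within print blocks (-1.09). IME2, the meiotic kinase gene, changed by -0.67 ± 0.25 from 4.43, with the reference above background on neither array. Of 25 meiotic regulators 3 fell (12%, against 7.51% of all genes) and 0 rose. The falls were IME1, CDC5 and CAK1, a kinase that activates other cell cycle kinases (-1.41 ± 0.22).

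NDT80, here under the SPS4 promoter, was at 7.39 at 0 min and 6.88 at 20 min (-0.51 ± 0.11), and SPS4 was at 7.71 and 7.55 (-0.16 ± 0.23). Neither change reached 2-fold, and the sign for SPS4 depended on the scaling (-0.29 to 0.33). In SPM these genes stood at 6.79 and 7.62 and at 40 min at 5.62 and 6.69. The reference was above background for neither gene, so their ratios to the reference are not firm as levels. SUM1, the repressor that competes with Ndt80, changed by 0.87 ± 0.56.

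Of 49 genes of recombination and the chromosome axis 14 fell (28.6%, against 7.51% of all genes) and 0 rose (median change -0.59). Of the 49 genes 27 were above background at 0 min against 16 at 20 min. With sides not above background set to their bound, and the 18 members above background on neither array set to 0, the median was 0. The median of all genes was 0 by the same rule. HOP2, needed for correct pairing of homologues, went from 3.44 and 3.57 on its spots to 0.55 and 0.31, a fall of at least 3.02-fold. For HOP2 the reference was above background on neither array. DMC1, the meiotic recombinase, fell at least 3.18-fold, MEK1, a checkpoint kinase of the chromosome axis, at least 3.01-fold, and HOP1, an axis protein, at least 2.18-fold. Between SPM and 0 min, a step that shares the 0 min array, the values were -0.60 for HOP2, -2.04 for MEK1 and -1.67 for HOP1, and DMC1 went from 4.04 to 2.03. REC8, the meiotic cohesin gene, fell by 1.97 ± 0.11 from -0.93. SPO11, which makes the double-strand breaks, was above background at 0 min only, and its fall can be given only as at least 1.03-fold.

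Of 75 genes of the meiotic divisions 10 fell (13.3%, against 7.51% of all genes) and 0 rose. Their median change was -0.61, or -0.34 at the bounds. CLB6, an S-phase cyclin, went from 4.12 to 1.19 and was not above background at 20 min, a fall of at least 4.05-fold. The reference for CLB6 was above background on neither array. CLB4 fell by 2.01 ± 0.07, CLB3 by 1.41 ± 0.08 and CLB1 by 1.18 ± 0.05. CDC20, the activator of the anaphase-promoting complex, fell by 1.59 ± 0.01, SGO1, which guards centromeric cohesion, by 1.60 ± 0.11, and CDC5, the polo kinase, by 1.41 ± 0.16. At 20 min CLB1, CLB3, CDC20 and CDC5 were still at 2.55 to 3.67 against the reference.

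Genes of the spore's own structures kept high levels. Of 29 genes of the prospore membrane 5 fell (17.2%) and 0 rose (median change -0.56). Of 42 genes of the spore wall 9 fell (21.4%) and 2 rose (4.76%), with a median change of -0.58. Of all genes 7.51% fell and 6.20% rose. DTR1, the transporter of the dityrosine precursor, went from 6.52 to 4.34 (-2.18 ± 0.05), PFS1, needed for spore formation, from 6.13 to 3.76 (-2.38 ± 0.47) and SMA2, a prospore membrane protein, from 5.61 to 3.63 (-1.98 ± 0.28). For these 3 genes the reference was not above background. At 20 min 40 of the 42 spore wall genes were above background in the sample channel, the same number as at 0 min. The 2 that rose were DIT2, an enzyme of dityrosine synthesis (3.46 to 4.85, 1.39 ± 0.53), and SHC1, an activator of chitin synthesis for the spore wall (1.85 to 3.38, 1.53 ± 0.12). For DIT2 and SHC1, too, the reference was above background on neither array. DIT1, the partner of DIT2, and the sporulation septin gene SPR28 gave no usable change, because their spots changed by 3.05 and -1.77 and by -0.52 and 4.33.

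**Figure D5:**
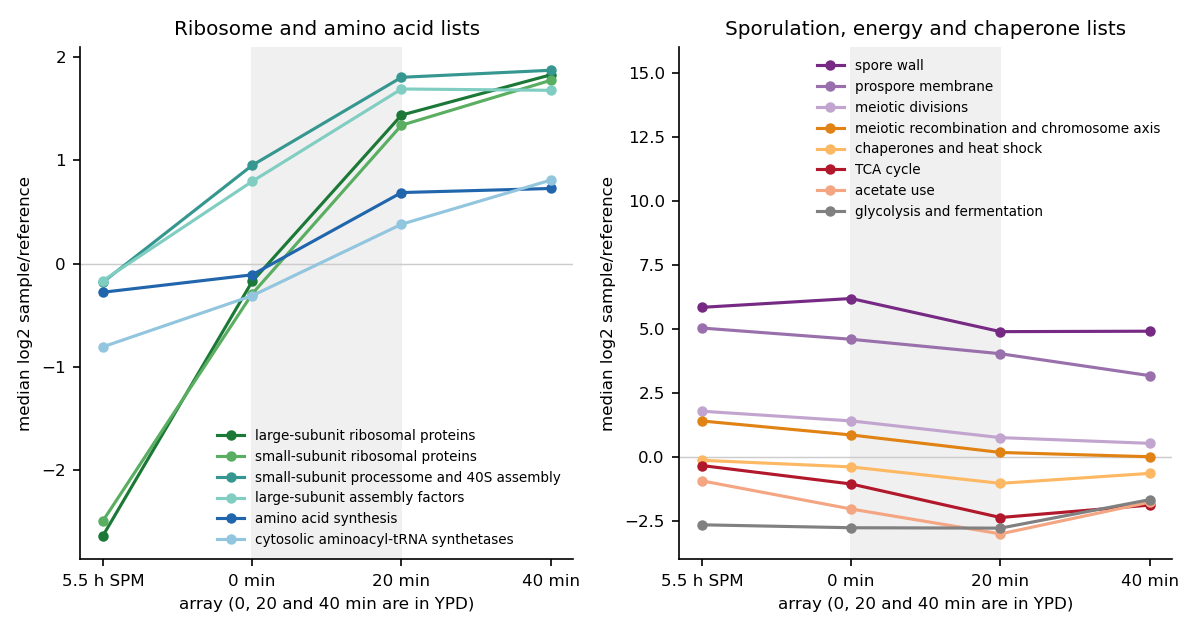
Median log2 ratio of sample over reference of 14 gene lists on the 4 arrays (5.5 h in SPM, then 0, 20 and 40 min in YPD), with the step from 0 to 20 min shaded. Ribosomal protein genes (small subunit) went from -2.49 in SPM through -0.29 at 0 min to 1.34 at 20 min, whereas spore wall genes stayed at 4.88 or more throughout and the TCA cycle reached its lowest median (-2.38) at 20 min. A median of levels and a median of changes are different quantities.

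The neighbouring steps share an array with this one and are given side by side. Large-subunit ribosomal protein genes had median changes of 2.33 from SPM to 0 min, 1.53 from 0 to 20 min and 0.45 from 20 to 40 min, and small-subunit genes 2.08, 1.65 and 0.43. Amino acid synthesis had medians of 0.12, 0.87 and -0.02. The TCA cycle had medians of -0.55, -1.12 and 0.28, acetate use -0.81, -0.52 and 0.99, and glycolysis -0.04, -0.34 and 1.19. The prospore membrane list had 0.07, -0.56 and -0.71, and the spore wall list 0.14, -0.58 and -0.68.

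Cell cycle genes outside meiosis gave few calls. Of 27 genes of G1 cyclins and Start 0 rose and 0 fell. CLN3, the cyclin that couples growth to Start, was at -1.76 and -1.70, a change of 0.07 ± 0.14 whose sign depended on the scaling. In SPM it read -3.02 and was not above background in the sample channel. CLN1 and CLN2 were above background in the sample channel on neither array. Of 60 genes of DNA replication and deoxynucleotide synthesis 2 rose and 2 fell, or 3.33% each, where 6.20% and 7.51% of all genes did. Of these 60 genes 32 were above background in the sample channel on neither array and 16 on both. The rises were POL12 (at least 3.29-fold) and RNR3 (at least 2.71-fold). The falls were the GINS subunit gene SLD5 (at least 2.02-fold) and RNR4, a small subunit of ribonucleotide reductase that was above background at 0 min only. Histone and chromatin assembly genes had 5 falls and 0 rises among 22, all in core histones: HHT1 (-1.98 ± 0.04), HHT2 (-2.05 ± 0.03), HHF1 (-2.04 ± 0.95), HHF2 (-1.49 ± 0.18) and HTB2 (-1.26 ± 0.14). The H3 genes HHT1 and HHT2 encode the same protein, as do the H4 genes HHF1 and HHF2, and HHT1 changed by -0.21 with scaling within print blocks.

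In the Ras and protein kinase A list 4 of 28 genes fell (14.3%, against 7.51% of all genes) and 1 rose (3.57%, against 6.20%). PDE2 and PDE1, the phosphodiesterases that degrade cAMP, fell by 2.28 ± 0.40 and 1.19 ± 0.21. PDE2 stood at 1.74 in SPM, 4.59 at 0 min and 2.31 at 20 min. MSN4, a transcription factor of the stress response, fell at least 1.70-fold, and RAS2 rose at least 1.48-fold. BCY1, the regulatory subunit of protein kinase A, changed by 0.38 ± 0.04 in the ratio and by -0.25 in the sample channel. FLO11 and MSB2, genes of the filamentous growth response, were above background on neither array.

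Among the falls outside these lists were those of SRT1, HIM1, SED1, SPG4 and YNL195C. SRT1, a cis-prenyltransferase gene, read 2.36 and 2.35 on its spots at 0 min and -1.30 and -1.34 at 20 min, where it was not above background, a fall of at least 4.90-fold. SED1, a cell wall protein, went from -0.65 to -3.51 (-2.86 ± 0.05) and HIM1, linked to DNA repair, from 7.50 to 4.54 (-2.96 ± 0.05) with the reference not above background. SPG4, named for survival in stationary phase, fell at least 6.90-fold and YNL195C at least 3.48-fold. MSB1 and GAL7 also ranked here, with -3.31 ± 1.10 and -3.18 ± 0.64, but their sample channel changed by -0.71 each and the reference was above background only at 20 min. Of the rises outside the lists, GTF1, of the mitochondrial glutaminyl-tRNA pathway, went from -1.88 to 0.85 and was above background at 20 min only, and YBR138C rose at least 3.05-fold.

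Some calls may repeat a neighbour. The probes are double-stranded PCR products that do not tell the strands apart, and dubious ORFs often overlap a real gene. Of 19 higher ORFs with a standard systematic name but no RefSeq locus tag 12 adjoined a gene called higher, and of 20 lower ones 8 adjoined a gene called lower. Neighbours were taken from the order of systematic names. The share of all ORFs with such a neighbour was not computed, and overlap was not tested. YDR417C, which rose by 2.60 ± 0.03, lies next to RPL12B, and YDL023C (-2.56) lies next to GPD1. Of the 385 higher genes 245 were above background in the sample channel on both arrays, 112 at 20 min only and 28 on neither, and of the 466 lower genes 326 were so on both, 101 at 0 min only, 2 at 20 min only and 37 on neither. At the threshold itself, 82 of the higher and 133 of the lower genes had a smaller spot between 2-fold and 2.2-fold, and 288 further genes had a smaller spot between 1.8-fold and 2-fold.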

How the data were processed

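Each deposited scanner file holds, per the file headers, the intensity and local background intensity of each spot in Cy5 (sample) and Cy3 (reference) on a linear scale, quantified by the authors with QuantArray without subtraction or normalization. A second file, deposited as log2 ratios that the authors had background-subtracted, floored at the buffer mean and centred on the array median, served as an alternative. Its levels on each array correlated at r = 0.994 to 0.998 with the scanner values put through the same steps. The change between arrays was not compared in this way. In limma 3.58.1 (R 4.3.3) background was corrected with normexp (offset 50), followed by 1 loess curve per array (236 buffer and 384 Arabidopsis spots had weight 0) and median centring, and the 2 spots were averaged. Left out were 12 genes with an ignored spot at 0 min.

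A gene counted as above background where either spot passed the 95th percentile of the buffer spots. Where 1 time point was not, the fold is a bound: the bright array's Cy5 value (after loess and Aquantile) against the higher of the dim value and the lowest value above background on that array. No fold is given where neither was, or where this bound from 1 channel exceeded the fold of the ratio.

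ORF names came from the files, and 5663 of 6218 matched a RefSeq locus tag (assembly R64), used for symbols and not for coordinates. The 36 gene lists and the genes named were chosen with earlier results of these data known. Named were the 15 largest rises and falls with the brighter side above background, NDT80, SPS4, IME1, IME2, SUM1, CLN3, BCY1, FLO11 and MSB2, up to 3 members of each list in each direction and members moving against their list. Other genes named were chosen after their values were seen. Scaling, background, channel, spot, filter and threshold alternatives were run. Promoter motifs were not analysed here. Some genes that met the naming rule are not reported here.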

Additional observations from a re-analysis of the deposited data

How the results depend on the processing

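Against 385 higher and 466 lower genes (45.2% of the calls higher), array-median scaling gave 412 and 389, of which 360 and 350 were shared with those calls, and loess within print blocks 386 and 444, with 260 and 300 shared. Centring the difference on its median over all genes, a shift of 0.12, gave 468 and 351 (57.1% higher), and the study's own steps 398 and 303 (56.8% higher). Normexp without offset gave 418 and 475, the values deposited by the authors 441 and 362, and the sample channel alone 486 and 493, with 318 and 271 shared. Fewer genes were called among those above background in both channels on both arrays (227 and 282), and with the dim side at its bound 295 and 361 were left. Arabidopsis spots as the background gave 380 and 463. Spot 1 alone gave 550 and 684, spot 2 alone 562 and 700, and the mean alone 519 and 630. With both spots past 1.5-fold 792 and 1107 were called, and past 3-fold 136 and 113.

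The medians of the ribosomal protein lists lay between 1.09 and 2.24 and that of the TCA cycle between -1.21 and -0.81 over the scaling, background, channel, spot and filter alternatives. With sides not above background at their bound, the medians of RNA polymerase I and III, autophagy, recombination, nitrogen scavenging and sterol genes were 0 and that of tRNA synthetases was 0.55. Genes above background on neither array count as 0 in these medians, and the median of all genes was then also 0. The acetate median was -0.29 with scaling within print blocks and the spore wall median -0.38 in the sample channel alone. Of the 310 genes brightest in Cy5, 24 were higher and 85 lower, and with array-median scaling 42 and 32. The sign of the change depended on the scaling for CLN3, PDC1, SPS4 and UGP1, and it turned in the sample channel alone for BCY1 and RPF2. No paired analysis was possible because each time point has 1 array. The number of arrays limits the precision.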

Other observations

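Further gene families were put together after the values had been seen, so their counts are descriptions of these arrays and lend no support to any pattern. In a phosphate list of 22 transporters, phosphatases, polyphosphate synthesis genes and regulators 6 fell and 0 rose (median change -0.68, against -0.12 for all genes). Of all genes 7.51% fell and 6.20% rose. They were PHO81, the inhibitor of the phosphate-sensing kinase (-1.96 ± 0.04), the high-affinity transporter PHO84 (-1.39 ± 0.20), PHM6, PHO86, VTC5 and SPL2, of which SPL2 was above background on neither array. PHO84 had stood 1.55 higher at 0 min than in SPM. In a list of 22 genes of the endoplasmic reticulum 4 fell: KAR2 (-2.26 ± 0.02), the oxidase gene ERO1 (-1.81 ± 0.20), the disulfide isomerase gene PDI1 (-1.56 ± 0.07) and HAC1, the transcription factor of the unfolded protein response (-1.09 ± 0.09), and SEC63, a subunit of the translocon that was above background at 20 min only, was higher.

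Of 27 cell wall genes 7 fell and 1 rose, where 7.51% and 6.20% of all genes did. Beside SED1, HPF1 fell by 2.38 ± 0.09, CWP1 by 1.92 ± 0.15 and CCW12 by 1.53 ± 0.02, and the glucanase gene SCW4 rose at least 1.97-fold. Of 4 tubulin genes 2 fell, TUB1 by 1.93 ± 0.52 and TUB2 by 1.31 ± 0.21. TUB3 changed by -1.03 ± 0.24 without passing on both spots, and TUB4 was above background on neither array. Both genes of 14-3-3 proteins, BMH1 and BMH2, fell by 1.59 ± 0.18 and 2.04 ± 0.17. Of the 5 subunits shared by all nuclear RNA polymerases 3 rose, namely RPB5 (1.42 ± 0.27), RPB8 (1.84 ± 0.50) and RPO26 (1.36 ± 0.18), whereas RPB10 changed by -0.72 ± 0.05. Of 7 subunits of polymerase II alone 0 rose and 0 fell. None of the 23 PAU genes tested passed the threshold, and they shared a median change of -0.60, with near-identical sequences that their probes can hardly separate.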
